A study of Bubalus bubalis with 9 samples.

Results

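FOXO1, FOXO3 and FOXO4 encode forkhead box O transcription factors, and their RNA was compared here in granulosa cells from buffalo ovarian follicles at successive stages of atresia, the degeneration that ends most follicles before ovulation. The 3 genes were taken by their gene identifiers from the authors' deposited tables, 3 of 20801 genes in all. The 9 samples of Chinese buffalo (Bubalus bubalis) granulosa cells, the somatic cells that surround the oocyte, comprised 3 from healthy, 3 from early atretic and 3 from late atretic follicles. The labels give no treatment, age, follicle size or criterion of atresia, and nothing in them ties the samples to separate animals, so p-values reflect the spread among these samples alone, which may be technical.

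FOXO factors bind DNA in the nucleus and switch on genes of growth arrest, cell death, stress defence, proteolysis and insulin feedback. When follicle-stimulating hormone (FSH) or insulin-like growth factor (IGF) activates the kinase AKT through PI3-kinase, AKT phosphorylates FOXO proteins, 14-3-3 proteins bind them, and they are held in the cytoplasm. In rodent granulosa cells FOXO1 is the member best known from follicle growth, whereas FOXO3 is best known for holding mouse primordial oocytes in reserve. Because this control acts on the protein, RNA levels do not measure FOXO activity.

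Each of the authors' deposited tables holds 1 pairwise comparison, with a read count for each group, taken here as a mean of normalized counts. It also gives the log2 fold change and a p-value with its Benjamini-Hochberg adjustment over all tested genes. No value per sample was used, and how deeply each library was sequenced is unknown. Values after ± are standard errors worked back from each deposited log2 fold change and its p, assuming a two-sided normal test, which the sources do not state. A change was called at a deposited adjusted p below 0.05. Tables were scaled separately, and the same group differed between tables by a median factor of 0.952 to 1.03 over genes with means above 1000, so values are compared within a table. Read counts also depend on transcript length, so levels are not compared between genes. In bulk RNA, fewer cells of a type and less RNA per cell cannot be told apart.

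None of the 3 FOXO genes changed past the threshold in any comparison. FOXO1 had the lower mean in early atretic follicles, FOXO4 had the higher mean there, and FOXO3 had nearly equal means. By the authors' deposited adjusted p, 0 of the 3 genes passed in early atretic against healthy follicles, where 12.9% of all tested genes passed. Likewise 0 of 3 passed in late atretic against healthy follicles, where 4.38% of genes passed, and 0 of 3 in late against early atretic follicles, where 0.108% passed. At an unadjusted p below 0.05, 1 of the 3 passed in early atretic against healthy follicles, namely FOXO4, beside 23.6% of all tested genes (13.7% higher and 9.82% lower). At that limit 0 of 3 passed in late atretic against healthy follicles, beside 12.2% of genes (9.2% higher and 2.96% lower), and 0 of 3 in late against early atretic follicles, beside 5.36% (2.36% higher and 3% lower).

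FOXO1 averaged 9759 normalized counts in early atretic follicles and 15389 in healthy follicles per the authors' deposited table. The authors' deposited log2 fold change was -0.66 ± 0.34 (unadjusted p of 0.0535, adjusted p = 0.223), a ratio of 0.634 with an implied 95% interval of 0.399 to 1.01. The interval spans values from a much lower mean in early atretic follicles to no difference. In late atretic follicles FOXO1 had a mean of 12613 against 14983 in healthy follicles, with a log2 fold change of -0.25 ± 0.52 (adjusted p = 0.978) per the authors' deposited table. The comparison of late with early atretic follicles gave means of 13247 in late and 9870.3 in early atretic follicles and a log2 fold change of 0.42 ± 0.45 (adjusted p = 0.997) per the authors' deposited table. The late atretic mean lay between the healthy and the early atretic mean, but neither difference from it exceeded its error.

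FOXO3 had means of 929 normalized counts in early atretic and 898 in healthy follicles per the authors' deposited table, with a log2 fold change of 0.05 ± 0.30 (adjusted p = 0.949). Its implied 95% interval for the ratio of early atretic to healthy follicles was 0.691 to 1.55, so it spans differences in either direction. Late atretic follicles had a FOXO3 mean of 1060.0 and healthy follicles 874 per the authors' deposited table, with a log2 fold change of 0.28 ± 0.40 (adjusted p = 0.978). Late atretic follicles had 1113 and early atretic follicles 939 normalized counts of FOXO3 per the authors' deposited table of that comparison, with a log2 fold change of 0.25 ± 0.35 (adjusted p = 0.997). Each of these differences was smaller than its own error.

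FOXO4 had means of 363 normalized counts in early atretic and 227 in healthy follicles per the authors' deposited table. The authors' deposited log2 fold change of 0.68 ± 0.31 had an unadjusted p of 0.0286 and an adjusted p of 0.144, so it did not pass over all genes, although the implied 95% interval of the ratio, 1.05 to 2.45, lay above 1. In late atretic follicles the FOXO4 mean was 344 against 221 in healthy follicles per the authors' deposited table, with a log2 fold change of 0.64 ± 0.40 (adjusted p = 0.612). Between the atretic stages FOXO4 was nearly level, at 362 in late and 367.5 in early atretic follicles per the authors' deposited table, with a log2 fold change of -0.02 ± 0.31 (adjusted p = 0.999). FOXO4 thus had the higher mean in both atretic stages, with no call in either.

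**Figure D1:**
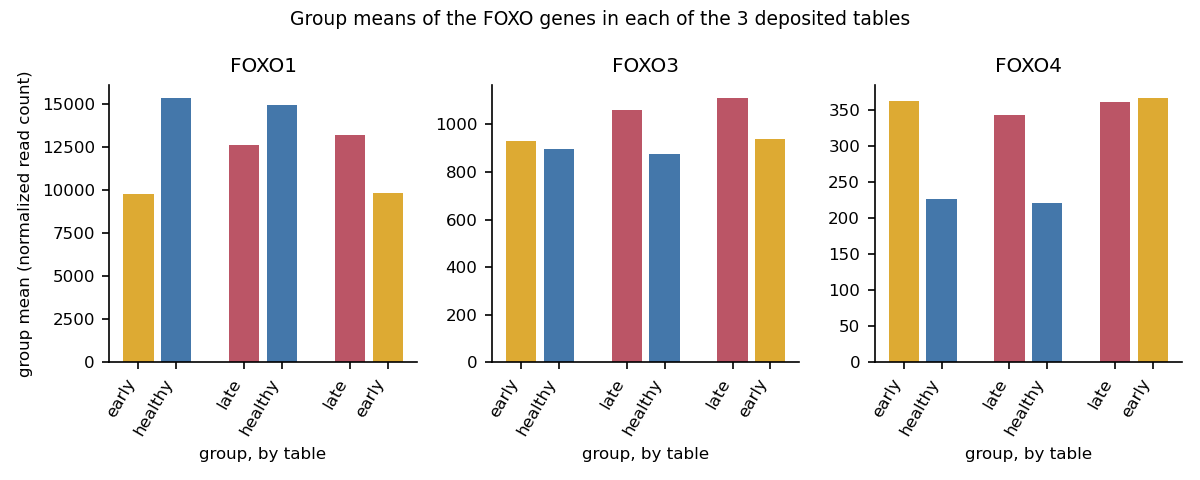
Group means in normalized read counts (y axis, from 0) of FOXO1, FOXO3 and FOXO4, 1 panel per gene, with 1 pair of bars for each of the authors' deposited tables. Bars are the authors' values per group, read as means over 3 samples, and carry no error, since values per sample were not used. FOXO1 stood at 9759 in early atretic against 15389 in healthy follicles, and FOXO4 at 363 in early atretic against 227 in healthy follicles.

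The size of difference that could be called varied between tables. At its implied error, FOXO1 would have needed an absolute log2 fold change of 0.927 to be called in early atretic against healthy follicles, 1.59 for late atretic against healthy follicles and 1.81 between the atretic stages. For FOXO4 these bounds were 0.846, 1.22 and 1.26, and for FOXO3 they were 0.810, 1.24 and 1.44. The implied error of FOXO1 in early atretic against healthy follicles was larger than that of 87.9% of the genes with both means at least 100, whose median was 0.22 per the authors' deposited table. The corresponding shares were 80.2% for FOXO3 and 83.1% for FOXO4. Among the same genes, 16.3% had an absolute log2 fold change at least as large as that of FOXO1, 15.3% one as large as that of FOXO4, and 89.2% one as large as that of FOXO3.

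**Figure D2:**
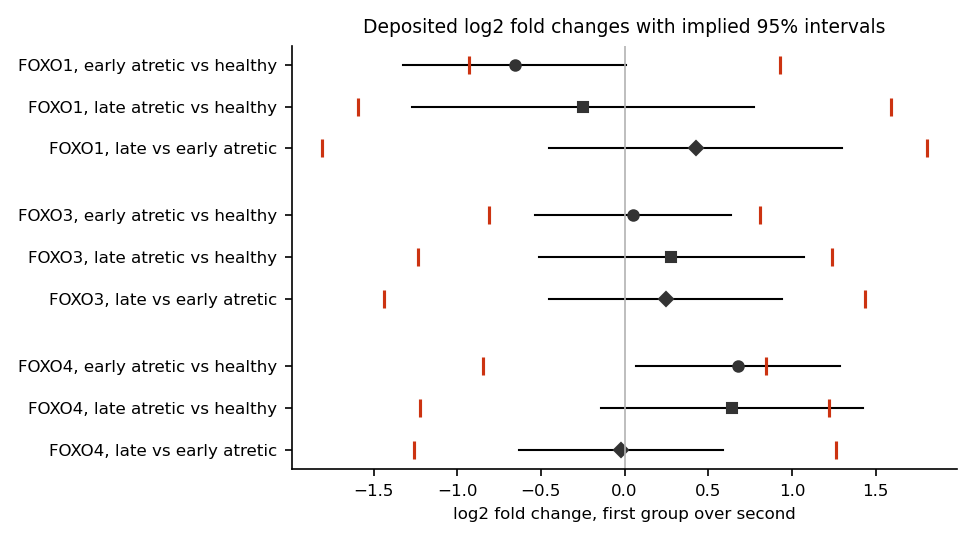
Log2 fold changes of FOXO1, FOXO3 and FOXO4 from the authors' deposited tables (x axis, first named group over second), 1 row per gene and comparison, with implied 95% intervals as black lines; red ticks mark the absolute log2 fold change that would have been called at that error. Every point lies inside its red ticks, and the interval of FOXO4 in early atretic against healthy follicles, from 0.07 to 1.29, is the 1 interval that leaves out 0.

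Within the family the log2 fold changes differed in sign. In early atretic against healthy follicles the log2 fold change of FOXO4 exceeded that of FOXO1 by 1.34 per the authors' deposited table, and that of FOXO3 exceeded FOXO1 by 0.71. In late atretic against healthy follicles the differences were 0.89 for FOXO4 against FOXO1 and 0.53 for FOXO3 against FOXO1 per the authors' deposited table. Both comparisons share the healthy samples. Whether members differ in response was not tested, since the values of both genes in each sample would be needed.

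Among 8774 other genes with a symbol, means of at least 100 in every group and a p-value in each table, those nearest to each member in both log2 fold changes against healthy follicles were sought. The distance covers only 3 group means, and many genes lie close, with 96 genes within a distance of 0.1 of FOXO1, 217 of FOXO3 and 43 of FOXO4. Nearest to FOXO1 were C1GALT1C1, a chaperone of O-glycan synthesis, CREB3L2, a transcription factor of the secretory pathway, and ARL16, at distances of 0.0116, 0.0156 and 0.0157. COPZ2, SYTL4 and SLC39A1 were nearest to FOXO3, at 0.0023, 0.0053 and 0.011. KLF6, MGST3 and NFKBIA, the inhibitor of NF-kappa-B, were nearest to FOXO4, at 0.0099, 0.011 and 0.0201. KLF6 rose by 0.67 ± 0.22 (adjusted p = 0.0221) and MGST3, a microsomal glutathione transferase, by 0.67 ± 0.25 (adjusted p = 0.0488) in early atretic against healthy follicles per the authors' deposited table. Both genes were picked because their log2 fold changes lay near the 0.68 of FOXO4, whose implied error of 0.31 was larger. Their nearness was thus set by the selection, and their calls say nothing about FOXO4.

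Of 43 forkhead family genes in the tables, 12 were listed at 0 in every group and 14 reached a group mean of 100. FOXO6, the remaining FOXO gene, was near the floor, with means of 3.7 in early atretic and 9.94 in healthy follicles per the authors' deposited table. Of the 40 forkhead genes other than the 3 FOXO genes, 26 were tested in early atretic against healthy follicles, and 0 were higher and 2 lower, beside 8.59% of all genes higher and 4.35% lower. At an unadjusted p below 0.05, 1 of these 26 was higher and 2 were lower, beside 13.7% and 9.82% of all genes. FOXM1, a driver of mitotic genes, fell by 1.08 ± 0.28 (adjusted p = 0.00212) and FOXL2, which maintains granulosa identity, by 1.07 ± 0.36 (adjusted p = 0.025) in early atretic against healthy follicles per the authors' deposited table. Of 24 tested in late atretic against healthy follicles 0 were higher and 1 (4.17%) lower, beside 3.98% and 0.397% of all genes. The lower gene was again FOXM1, which fell by 0.88 ± 0.26 (adjusted p = 0.0194) per the authors' deposited table. FOXP4 had a log2 fold change of 0.66 ± 0.28 in early atretic against healthy follicles, close to that of FOXO4, and did not pass (adjusted p = 0.09999 per the authors' deposited table).

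**Figure D3:**
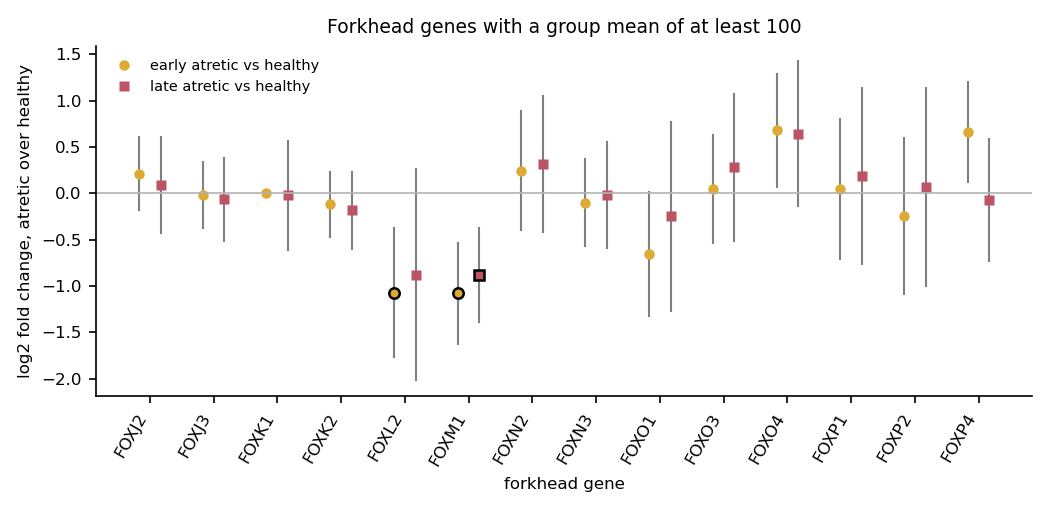
Log2 fold changes, atretic over healthy follicles (y axis), of the 14 forkhead genes with a group mean of at least 100 (x axis), from the authors' deposited tables; circles are early atretic and squares late atretic against healthy follicles, grey lines are implied 95% intervals (FOXK1 has none in the early comparison, as its p was close to 1), and black outlines mark calls. FOXM1 carries an outline in both comparisons and FOXL2 in the early one, while FOXO1, FOXO3 and FOXO4 carry none.

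Markers of several cell types were set beside these values. Over all genes 8.59% were higher and 4.35% lower in early atretic, and 3.98% higher and 0.397% lower in late atretic than in healthy follicles. All 10 granulosa markers were detected in each group, and 7 of 10 were lower in early atretic than in healthy follicles per the authors' deposited table (FSHR, FOXL2, AMHR2, INHA, HSD17B1, FST and NR5A2), against 0 of 10 in late atretic against healthy follicles. Their means summed to 171947.8 in early atretic and 691075.6 in healthy follicles in one of the authors' deposited tables, and to 311548.7 in late atretic and 670984.8 in healthy follicles in another. Macrophage markers summed to 2981.5 in early atretic and 390.2 in healthy follicles per the authors' deposited table, with 5 of 10 higher, and to 5841.9 in late atretic and 379 in healthy follicles, with 5 of 9 higher. Stromal markers summed to 12833.7 in early atretic and 2914.1 in healthy follicles per the authors' deposited table, with 6 of 7 higher, and to 16132.1 in late atretic and 2826.5 in healthy follicles, with 4 of 7 higher. Among endothelial markers, 3 of 9 were higher in early atretic and 1 of 9 in late atretic than in healthy follicles per the authors' deposited tables. Their means summed to 3090.0 in early atretic against 2044.3 in healthy follicles, and to 1817.2 in late atretic against 1986.8 in healthy follicles. Smooth muscle markers had 2 of 5 higher in each atretic stage than in healthy follicles, with sums of 4891.1 in early atretic against 5108.2 in healthy and 5940.0 in late atretic against 4964.0 in healthy follicles per the authors' deposited tables. For theca markers 1 of 4 was lower in early atretic follicles, and for lymphocyte markers 0 of 6 were called in early or late atretic against healthy follicles, with 0 of 6 at an unadjusted p below 0.05. The part of a changed cell mixture in the FOXO values was not tested.

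Upstream of the FOXO factors stand the receptors for FSH, IGF and insulin and their adaptors, and the list of these also holds the ligand gene IGF2 and the receptor gene KIT. Of 13 tested genes of this list, 5 were higher and 1 lower in early atretic than in healthy follicles, where 8.59% of all genes were higher and 4.35% lower, and the median log2 fold change of the list came to 0.51, beside 0.02 over all genes. FSHR, the FSH receptor, fell by 1.16 ± 0.21 (adjusted p = 1.49e-06), to a mean of 2560.1 in early atretic follicles against 5720 in healthy follicles per the authors' deposited table. IRS2, an insulin receptor substrate that is itself a FOXO target, rose by 2.10 ± 0.52 (adjusted p = 0.00106), to 909.9 in early atretic against 213 in healthy follicles per the authors' deposited table. KIT, the receptor for KIT ligand, rose by 2.50 ± 0.46, the growth factor gene IGF2 by 2.04 ± 0.60, GRB10, an adaptor that restrains insulin signalling, by 1.96 ± 0.39, and IGF2R, which clears IGF2, by 0.51 ± 0.17 in early atretic against healthy follicles per the authors' deposited table. The receptor genes IGF1R (0.24 ± 0.19) and INSR (0.12 ± 0.39) did not pass per the authors' deposited table. By late atresia 2 of 13 were higher than in healthy follicles, beside 3.98% of all genes, namely KIT and GRB10, with rises of 2.27 ± 0.51 and 1.71 ± 0.47 per the authors' deposited table, while FSHR had -0.44 ± 0.35 and IRS2 0.51 ± 0.44 and did not pass.

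The list of PI3-kinase and AKT signalling had 3 of 25 genes (12%) higher and 2 (8%) lower in early atretic than in healthy follicles, beside 8.59% and 4.35% of all genes, with a median of 0.02. AKT1 and AKT2 had log2 fold changes of 0.28 ± 0.18 and 0.16 ± 0.13 per the authors' deposited table, and neither passed. TRIB2, a pseudokinase known to restrain FOXO3 in human melanoma cells, fell by 1.68 ± 0.30 (adjusted p = 1.81e-06), to 5769 in early atretic against 18474 in healthy follicles per the authors' deposited table. TRIB1, of the same pseudokinase family, rose by 1.81 ± 0.50 in early atretic against healthy follicles per the authors' deposited table, so these relatives changed in opposite directions. PIK3CD and INPP5D, a PI3-kinase catalytic subunit and a lipid phosphatase that are both typical of leukocytes, rose by 1.68 ± 0.45 and 2.85 ± 0.81 in early atretic against healthy follicles per the authors' deposited table. The macrophage markers given above were higher in the same comparison, and their part in these rises was not tested. SGK1, a kinase that also phosphorylates FOXO proteins, had 1348 in early atretic and 216 in healthy follicles per the authors' deposited table, with a log2 fold change of 2.64 ± 1.12 and no call (adjusted p = 0.107). PIK3IP1, an inhibitor of PI3-kinase, had 0.36 ± 0.58 and did not pass per the authors' deposited table.

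Late atretic against healthy follicles had 2 of the 25 genes (8%) higher and 1 (4%) lower, beside 3.98% and 0.397% of all genes, with a median of 0.06 beside 0.03 over all genes. PIK3CD rose by 2.41 ± 0.53, INPP5D rose by 3.61 ± 0.93 and TRIB2 fell by 1.02 ± 0.30 per the authors' deposited table.

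The next list holds enzymes and partners that act on FOXO proteins. Of 35 tested, 0 were higher and 3 lower in early atretic than in healthy follicles, beside 8.59% of all genes higher and 4.35% lower. After centring on the median log2 fold change of genes with both means at least 100, the count was 3 higher, namely KAT2B, SIRT2 and the 14-3-3 gene YWHAB, and 3 lower. These centred calls are not the authors': their p-values were recomputed from the implied errors, assuming a normal test, and adjusted anew. Without centring, 5 were higher and 4 lower in that comparison at an unadjusted p below 0.05, beside 13.7% and 9.82% of all genes. In late atretic against healthy follicles 0 of 35 were called, beside 4.38% of all genes. At an unadjusted p below 0.05, 1 was higher and 2 lower there, beside 9.2% and 2.96%. XPO1, the exportin that carries FOXO proteins out of the nucleus, fell by 0.71 ± 0.18 (adjusted p = 0.00217), to 2635 in early atretic against 4318 in healthy follicles per the authors' deposited table. The kinase gene NLK fell by 1.19 ± 0.36 and PRKAA2, a catalytic subunit of AMP-activated protein kinase, by 0.75 ± 0.23 in early atretic against healthy follicles per the authors' deposited table. The 7 genes of the 14-3-3 family had log2 fold changes between -0.01 and 0.47 per the authors' deposited table, and 0 passed in early atretic against healthy follicles (1, YWHAB, after that centring), against 3 higher at an unadjusted p below 0.05.

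Genes listed as FOXO targets come mostly from mouse and human cells of other tissues. Of 66 tested in early atretic follicles, 16 (24.2%) were higher and 1 lower than in healthy follicles, where 8.59% of all genes were higher and 4.35% lower, and the median log2 fold change was 0.38 beside 0.02 over all genes. In late atretic against healthy follicles 5 of 65 (7.69%) were higher and 0 lower, beside 3.98% and 0.397% of all genes, with a median of 0.30 beside 0.03. At an unadjusted p below 0.05, 13 were higher and 0 lower in that comparison, beside 9.2% and 2.96% of all genes. At that limit 19 were higher and 3 lower in early atretic against healthy follicles, beside 13.7% and 9.82%. The lists were drawn up with some of these rises known, BCL2L11, IRS2 and GADD45A among them, so the counts are a description and not independent evidence of a direction. In both comparisons the markers of macrophages and stroma given above were also higher, and their part in these counts was not tested.

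Among targets of cell death, 2 of 9 were higher in early atretic than in healthy follicles and the same 2 in late atretic follicles. Of all genes, 8.59% were higher in the early and 3.98% in the late comparison with healthy follicles. BCL2L11, which encodes the pro-apoptotic protein BIM, rose by 2.53 ± 0.35 (adjusted p = 3.19e-10), to 373 in early atretic against 64.5 in healthy follicles, and by 1.90 ± 0.53 (adjusted p = 0.012) in late atretic against healthy follicles per the authors' deposited tables. BCL6, a transcriptional repressor, rose by 1.92 ± 0.19 (adjusted p = 4.84e-21), to 2326 in early atretic against 614 in healthy follicles, and by 0.88 ± 0.28 (adjusted p = 0.0386) in late atretic against healthy follicles per the authors' deposited tables. The remaining members, such as BBC3 (1.38 ± 0.91), BNIP3 (-0.38 ± 0.40) and TRADD (0.04 ± 0.27), did not pass in early atretic against healthy follicles per the authors' deposited table. BBC3 had low means, 10.98 in early atretic and 4.24 in healthy follicles. The list median was 0.71 in the early and 0.88 in the late comparison, beside 0.02 and 0.03 over all genes. At an unadjusted p below 0.05, 2 were higher and 0 lower in the early comparison, beside 13.7% and 9.82% of all genes. At that limit 4 were higher and 0 lower in the late one, beside 9.2% and 2.96%.

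Among targets of growth arrest, 3 of 11 were higher in early atretic than in healthy follicles, beside 8.59% of all genes. In late atretic against healthy follicles 0 were higher, beside 3.98%. At an unadjusted p below 0.05, 1 was higher in the late comparison, beside 9.2%. CDKN1C, an inhibitor of cyclin-dependent kinases, rose by 3.34 ± 0.50 (adjusted p = 4.77e-09), to 258 in early atretic against 25.4 in healthy follicles per the authors' deposited table. GADD45A rose by 2.55 ± 0.30 and CDKN1A, which encodes the inhibitor p21, by 1.21 ± 0.37 in early atretic against healthy follicles per the authors' deposited table. CDKN1B, which encodes p27 and is the best known arrest target of FOXO factors, had 309 in early atretic and 392 in healthy follicles per the authors' deposited table, with a log2 fold change of -0.34 ± 0.20 (adjusted p = 0.29). Also without a call were CCNG2, a cyclin of growth arrest (-0.01 ± 0.26), and RBL2, a pocket protein (-0.13 ± 0.14), in early atretic against healthy follicles per the authors' deposited table.

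Targets linked to oxidative stress showed 1 of 11 (9.09%) higher in early atretic than in healthy follicles, about the share of all genes, 8.59%. The list median was -0.22. That member was SELENOP, a selenium transport protein, which rose by 1.96 ± 0.54, to 10427.7 in early atretic against 2678 in healthy follicles per the authors' deposited table. Other members did not pass in early atretic against healthy follicles. Among them, log2 fold changes were 0.42 ± 0.25 for SOD2, mitochondrial superoxide dismutase, 0.08 ± 0.17 for CAT, catalase, -0.20 ± 0.36 for SESN3 and -0.44 ± 0.35 for TXNIP per the authors' deposited table. In late atretic against healthy follicles 0 of 11 were called, beside 4.38% of all genes. At an unadjusted p below 0.05, 1 was higher there, beside 9.2%.

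In early atretic against healthy follicles 8.59% of all genes were higher and 4.35% lower. Of 15 metabolic and insulin feedback targets, 2 (13.3%) were higher and 1 (6.67%) lower there. The higher ones were IRS2 and TRIB1, given above, and EIF4EBP1, a brake on translation, fell by 1.27 ± 0.34 per the authors' deposited table. PDK4, which closes off pyruvate oxidation, had 0.64 ± 0.39 and did not pass per the authors' deposited table. Of 14 tested in late atretic against healthy follicles 0 were called, beside 4.38% of all genes. Of these 14, 0 had an unadjusted p below 0.05, beside 12.2%.

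Targets of autophagy and proteolysis had 4 of 13 higher and 0 lower in early atretic than in healthy follicles. Shares of all genes were 8.59% higher and 4.35% lower. The 4 higher targets act in protein or amino acid turnover or in lysosomal transcription. TRIM63 and FBXO32, ubiquitin ligases known from muscle wasting as FOXO targets, rose by 3.52 ± 0.58 (adjusted p = 1.62e-07) and 1.43 ± 0.35 (adjusted p = 0.000873) in early atretic against healthy follicles per the authors' deposited table. The TRIM63 mean was 79.1 in early atretic against 6.81 in healthy follicles, and FBXO32 had 767 in early atretic against 285 in healthy follicles per the authors' deposited table. GLUL, glutamine synthetase, rose by 0.79 ± 0.16 and TFEB, a transcription factor of lysosomal genes, by 1.12 ± 0.33 in early atretic against healthy follicles per the authors' deposited table. The autophagy genes proper, such as MAP1LC3B (0.35 ± 0.22), ULK1 (0.42 ± 0.19), BECN1 (-0.07 ± 0.15) and ATG12 (-0.51 ± 0.215), did not pass per the authors' deposited table. At an unadjusted p below 0.05, 5 of the 13 were higher and 1, ATG12, lower in early atretic against healthy follicles, beside 13.7% and 9.82% of all genes. At that limit 4 were higher and 0 lower in late atretic against healthy follicles, beside 9.2% and 2.96%. The late comparison with healthy follicles had 1 of 13 (7.69%) higher, beside 3.98% of all genes. That gene was TRIM63, with a rise of 2.82 ± 0.88 (adjusted p = 0.0343) per the authors' deposited table.

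The list of target transcription factors and migration genes had 4 of 8 higher in early atretic and 2 of 8 in late atretic than in healthy follicles, with medians of 1.79 and 1.29. Of all genes, 8.59% were higher in the early and 3.98% in the late comparison. KLF4 rose by 2.31 ± 0.66, ID1, an inhibitor of helix-loop-helix factors, by 2.56 ± 0.73, and KLF6 as given above, in early atretic against healthy follicles per the authors' deposited table. KLF2, a factor of quiescent T cells and endothelium, had 1.18 ± 0.67 and did not pass per the authors' deposited table. In late atretic against healthy follicles KLF4 rose by 2.41 ± 0.75 and S1PR1, a receptor of lymphocytes and endothelium, by 1.42 ± 0.42 per the authors' deposited table. Several of these genes are typical of leukocytes or endothelium, and of the 9 endothelial markers 3 were higher in the early and 1 in the late comparison, while 0 of 6 lymphocyte markers were called in either. Of the macrophage markers, 5 of 10 were higher in the early and 5 of 9 in the late comparison. The part of these cells in the rises was not tested.

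**Figure D4:**
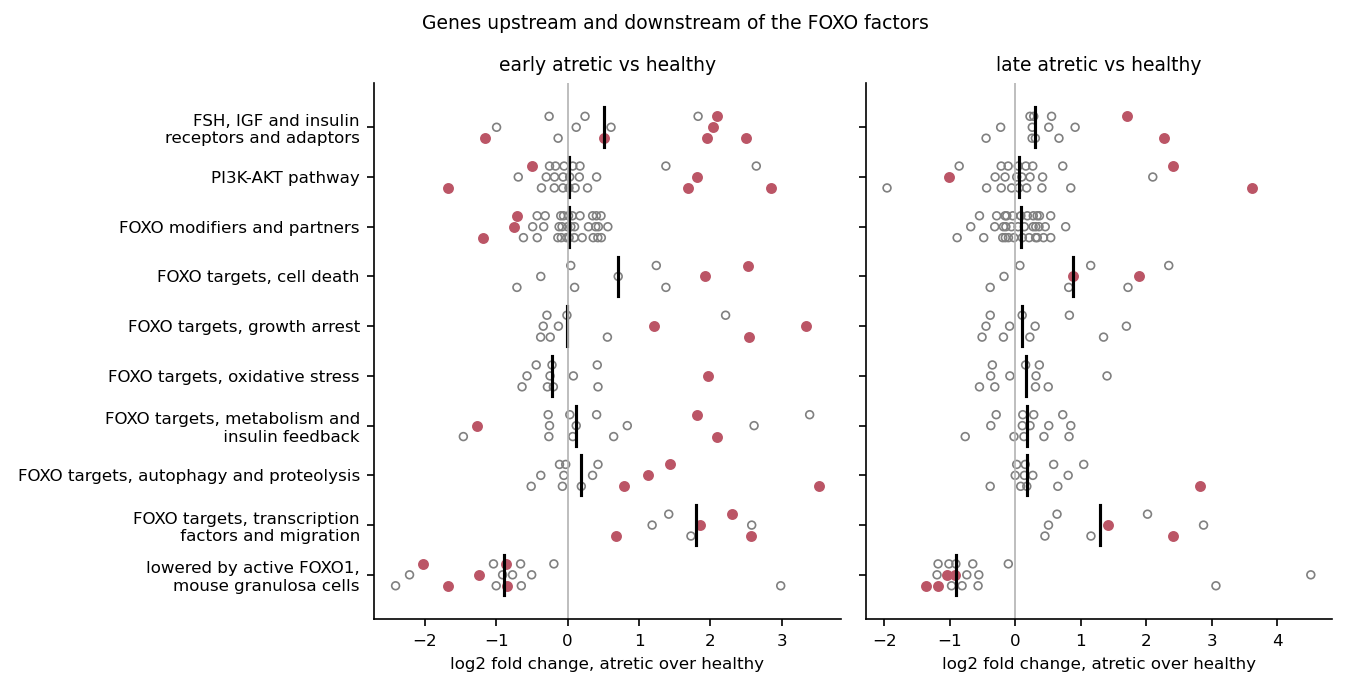
Log2 fold changes (x axis, atretic over healthy follicles, from the authors' deposited tables) of tested genes upstream of the FOXO factors, of listed FOXO targets and of genes that active FOXO1 lowers in mouse granulosa cells, 1 row per list; filled points are calls at an adjusted p below 0.05, open points are not called, and black bars are list medians. The medians run from -0.89 to 1.79 in early atretic and from -0.91 to 1.29 in late atretic against healthy follicles.

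Active FOXO1 is known to lower FSH-induced genes and genes of cholesterol synthesis in mouse granulosa cells. Of 16 tested genes of that kind, 0 were higher and 5 lower in early atretic than in healthy follicles, beside 4.35% of all genes lower. Of 17 tested, 0 were higher and 4 lower in late atretic than in healthy follicles, beside 0.397% of all genes lower. At an unadjusted p below 0.05, 1 was higher and 12 lower in the early comparison, where 9.82% of all genes were lower, and 2 were higher and 9 lower in the late one, where 2.96% were lower. INHA, the inhibin alpha subunit, fell by 2.03 ± 0.45 and CCND2, the cyclin of granulosa proliferation, by 1.68 ± 0.48 in early atretic against healthy follicles per the authors' deposited table, and neither passed in late atretic follicles, at -0.91 ± 0.58 and -1.18 ± 0.57. FDFT1, squalene synthase, was called in both comparisons and fell by 0.86 ± 0.31 in early and by 1.04 ± 0.26 in late atretic against healthy follicles per the authors' deposited tables. SQLE was called in early atretic follicles alone (-1.24 ± 0.37), and HMGCS1 (-1.35 ± 0.37) and IDI1 (-1.17 ± 0.38) in late atretic against healthy follicles alone per the authors' deposited tables, while the difference between the stages was not called for any of them. STAR, which moves cholesterol into mitochondria, went the other way in its means, with 717 in early atretic and 57.9 in healthy follicles per the authors' deposited table, and it carries no p-value in that comparison. CCND1 also went the other way, near the floor, with means of 8.16 in early atretic and 1.01 in healthy follicles. Its log2 fold change was 2.98 ± 1.44 (adjusted p = 0.177) in early and 3.06 ± 1.44 (adjusted p = 0.326) in late atretic against healthy follicles per the authors' deposited tables. The highest log2 fold change of the list in the late comparison was 4.51, also without a call. The granulosa markers were lower in early atretic follicles as given above, and INHA and CYP19A1 are on both lists, so the counts are not independent.

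Between late and early atretic follicles 0 of 151 tested genes of the pathway lists were called, beside 0.0171% of all genes higher and 0.0912% lower. At an unadjusted p below 0.05, 5 of the 151 were higher and 7 lower, beside 2.36% and 3% of all genes. Nearest to a call was BCL6, with 1157 in late and 2354 in early atretic follicles per the authors' deposited table, with a log2 fold change of -1.03 ± 0.27 (adjusted p = 0.0763). CDKN1C followed with 66.2 in late and 260.4 in early atretic follicles, with a log2 fold change of -1.98 ± 0.53 (adjusted p = 0.0865), per the authors' deposited table. IRS2 had 309.96 in late and 924 in early atretic follicles, with a log2 fold change of -1.58 ± 0.52 (adjusted p = 0.375), per the authors' deposited table. These 3 genes had lower means in late than in early atretic follicles, and BCL6 and CDKN1C were picked out after their values were seen.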

How the data were processed

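Granulosa cell RNA from 9 buffalo samples was sequenced from 3 µg of Trizol-extracted RNA with standard Illumina libraries, per the labels' protocols. Per the file headers, the deposited tables give group means of read counts; their values are not whole numbers, so they were read as a signal normalized by the authors. Per the file headers, the deposited log2 fold change is the first named group over the second; it matched the log2 ratio of means to within 0.0098 at means above 50. The deposited p-values and adjusted p-values are the authors'; Benjamini-Hochberg adjustment over unique genes gave them back to a relative difference of 7.7e-05. The sources used here do not give the test tool, counter or annotation; the submitters' processing notes name Bowtie 0.12.2 and mm8 and mm9, mouse builds, with no role. Reads shared between FOXO genes and related sequences may have been split or lost in counting.

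Of 21253 rows, 452 exact repeats were dropped. Implied errors and summaries were computed with Python 3.11.15, numpy 2.4.6, pandas 2.3.3 and scipy 1.17.1, and the functions were tested on simulated data. No test across genes was run anew from sample values, and 0 per-sample columns were left out. For centring alone, p-values were recomputed from the implied errors and adjusted again. Adjustment over genes at or above the median mean used the deposited p-values. Genes were matched by symbol, with CYP19A1 and IDI1 found under LOC numbers through RefSeq names of NDDB_SH_1; PIK3R3, SGK3, CYP51A1, CYP17A1 and CD163 were not analysed here. No coordinates or sequences are given. The members, the 10 pathway and 7 marker lists and the rule for named genes were chosen with earlier results of these data known. The rule took up to 5 called genes per list by smallest adjusted p in early or late atretic against healthy follicles, landmark genes whatever they showed, called forkhead genes and the 3 nearest genes per member; other genes named were chosen after their values were seen. 6 genes are on more than 1 pathway list. Promoter motifs, planned as a description, were not analysed here. A few list members are counted but not reported here by name.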

Additional observations from a re-analysis of the deposited data

How the results depend on the processing

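The 9 log2 fold changes of FOXO1, FOXO3 and FOXO4 kept their sign under centring, a pseudocount of 1 and recomputation from the other 2 tables. Only centring and adjustment over genes at or above the median mean could have added a call, and neither did; errors from a t distribution with 4 degrees of freedom and a stricter threshold of 0.01 could not. FOXO4 in early atretic against healthy follicles came nearest to a call, with adjusted p between 0.096 and 0.144, and FOXO1 there ranged from 0.172 to 0.304. For the pathway lists together, a threshold of 0.01 left 6 of 12 lower genes in the early comparison with healthy follicles, and 3 of 9 higher and 2 of 5 lower genes in the late one; a minimum log2 fold change of 1 left 7 lower in the early comparison; adjustment over genes at or above the median mean left 3 higher in the late one. In late against early atretic follicles that adjustment and centring each called 1 lower gene, BCL6, against 0. Of forkhead genes, the threshold of 0.01 left 1 lower (FOXM1) in the early and 0 in the late comparison with healthy follicles, and the fold minimum left 0 lower in the late one; the causes of these shifts, other than stricter limits, were not tested. Centring turned the sign of 3 medians near 0, to 0.061 for growth arrest targets in early atretic against healthy follicles, 0.03 for forkhead genes in late atretic against healthy follicles and -0.039 for the pathway lists in late against early atretic follicles. No paired analysis was possible because the tables hold group means, and for the same reason no single replicate could be left out. The number of reads behind each library is unknown, which limits what low means such as those of FOXO6 can show.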
